A study of Mus with 8 samples.

Results

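Oxtr, Oxt and Avpr1a, the genes for the oxytocin receptor, the oxytocin precursor and the vasopressin V1a receptor, were followed across 8 RNA sequencing libraries of mouse uterus. They were chosen by gene symbol, and all 3 were found among the 31269 symbols of the count table. Per the labels, 4 libraries came from uteri with myometrial deficiency of the progesterone receptor (PGR) and 4 from control uteri, all at pseudopregnancy day 6. Pseudopregnancy follows a mating with a sterile male, with high progesterone and no embryos. The labels nonetheless place the tissue around implantation sites, so the part of the uterus that was sampled is uncertain. The labels name neither strain, age, the alleles behind the deficiency, the driver of any deletion nor any pooling of animals. Nothing states that the 8 libraries are 8 animals, and the p-values cover the spread between libraries, which may be technical.

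Oxytocin and vasopressin are closely related short peptides, made as precursors mainly by hypothalamic neurons and released from the posterior pituitary. The oxytocin receptor and the V1a receptor couple to the G proteins Gq and G11, which activate phospholipase C, release calcium from internal stores and make smooth muscle contract. In rodents the uterine oxytocin receptor is raised by estrogen and held low under progesterone until the end of pregnancy. The receptor is also made outside muscle: in ruminants it sits in the endometrial epithelium and drives the release of prostaglandin F. The V1a receptor is best known from vascular smooth muscle, where it mediates the pressor action of vasopressin. The comparison asks how the transcripts of this signalling system differ between uteri labelled PGR-deficient and control uteri.

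Total counts ran from 71377993 to 72364750 in the libraries labelled PGR-deficient and from 70296369 to 71303026 in the controls. Pgr, the targeted gene, measured 186.6, 183.9, 177.3 and 159.7 CPM (each count relative to the TMM-scaled library size) in libraries 1 to 4 labelled PGR-deficient, against 131.3, 180.0, 143.8 and 170.9 CPM in control libraries 1 to 4. Pgr was thus not lower under the PGR-deficient label, and every direction below rests on that label alone. The label names a deficiency of the myometrium. A count per gene in uterine tissue cannot show the Pgr of muscle alone or the loss of a single exon. Libraries 2 and 3 labelled PGR-deficient stood apart from the other 6. The summed level of 7 estrogen-induced uterine genes, carried mostly by C3, Ltf and Lcn2, was 9770 and 6951 CPM in these libraries, against 1537 and 1764 CPM in libraries 1 and 4 of the same label and 1417 to 3207 CPM in the controls. The list was not uniform: Aqp5, a water channel, measured 31.0 CPM in library 3, the lowest of all 8. The summed level of 6 epithelial progesterone target genes was 43.0 and 42.7 CPM in libraries 2 and 3, against 387.7 and 222.5 CPM in libraries 1 and 4 and 224.7 to 307.7 CPM in the controls. Cyp26a1, a retinoic acid hydroxylase, made up most of that sum in the controls, at 148.9 to 248.4 CPM. It measured 2.77 and 13.6 CPM in libraries 2 and 3, against 106.8 and 108.6 CPM in libraries 1 and 4. In library 1 the largest part was Lrp2, at 179.2 CPM, against 15.5 to 24.9 CPM in the controls. Other members shared the low levels of libraries 2 and 3 only in part. Il13ra2 was lowest of all 8 in both. Ihh was lowest in library 2, at 0.430 CPM, but lay within the control range in library 3. Lrp2 and Calca were lowest in library 3 only, and Calca was highest in library 2. Areg, an EGF receptor ligand, was not lower, but its counts were too few to pass the expression filter. It measured 0.163 and 0.0567 CPM in libraries 2 and 3, from 11 and 4 counts, against 0 to 0.0274 CPM in the controls. Oxtr, Avpr1a and Oxt are therefore also given without libraries 2 and 3. So is each other named gene of the signalling pathway whose difference moved by over 1.5 times or turned without them.

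Oxtr was abundantly counted and varied widely among libraries of the same label. The gene spans 112473683 to 112491035 of chromosome 6 (GRCm38.p6), and no other gene of the RefSeq table overlaps it. It measured 49.0, 287.6, 135.4 and 54.2 CPM in libraries 1 to 4 labelled PGR-deficient, from 3547, 19392, 9543 and 3960 counts. In control libraries 1 to 4 it measured 37.3, 64.1, 46.5 and 110.2 CPM, from 2709, 4542, 3396 and 7811 counts. Libraries 2 and 3 labelled PGR-deficient held the highest levels, control library 4 came next, and libraries 1 and 4 labelled PGR-deficient lay within the control range. The 95% Poisson intervals of the 8 levels did not overlap each other except for library 1 labelled PGR-deficient (47.4 to 50.7 CPM) and control library 3 (44.9 to 48.1 CPM). Counting error therefore covers little of the spread, although it leaves out all other sources of error.

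**Figure D1:**
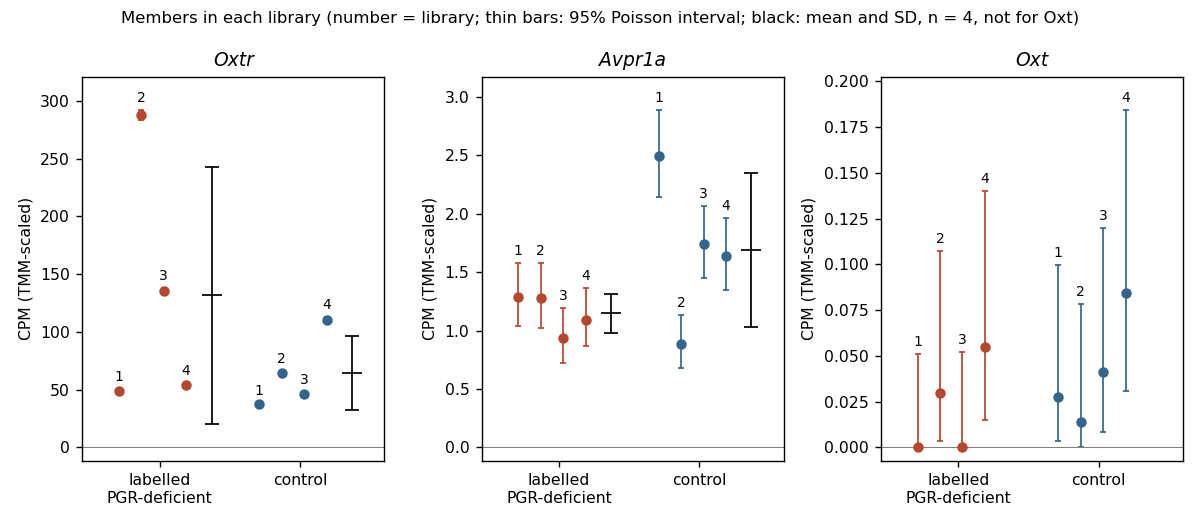
Level of Oxtr, Avpr1a and Oxt in each library (y axis, TMM-scaled CPM, a separate scale per gene), with the libraries labelled PGR-deficient left of the controls; points carry the library number and a 95% Poisson interval, and black marks give the mean and SD of 4 libraries for Oxtr and Avpr1a. Libraries 2 and 3 labelled PGR-deficient lead for Oxtr at 287.6 and 135.4 CPM, control library 1 leads for Avpr1a at 2.49 CPM, and Oxt stays under 0.1 CPM in all 8.

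The groups did not differ in Oxtr beyond the spread between libraries. Oxtr averaged 131.6 ± 111.3 CPM in the libraries labelled PGR-deficient and 64.5 ± 32.4 CPM in the controls (SD, n = 4 each). The log2 difference of PGR-deficient over control was 1.03 ± 0.60 (SE), or 2.04-fold (95% interval 0.782 to 5.32). The adjusted p was 0.316 in edgeR's quasi-likelihood test, with an unadjusted p of 0.126. An exact permutation test (two-sided) of the 8 log2 CPM values gave p = 0.286, where 0.0286 is the smallest p that 4 against 4 libraries allow. Without library 2 labelled PGR-deficient the log2 difference was 0.30 (edgeR adjusted p = 0.765). Without libraries 2 and 3 it was -0.32 (edgeR adjusted p = 0.716), which turns its direction. As libraries 2 and 3 held the highest Oxtr levels of all 8, leaving them out could only lower the difference.

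The spread of Oxtr was high under both labels. The largest level was 5.87 times the smallest among the libraries labelled PGR-deficient and 2.95 times the smallest among the controls. The SD of its log2 CPM was 1.20 in the libraries labelled PGR-deficient and 0.68 in the controls. Among 11580 genes with a mean of at least 10 CPM, 98.2% had an SD no larger than that of Oxtr in the libraries labelled PGR-deficient, and 98.4% did in the controls. The difference in spread between the labels was not tested.

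The level of Oxtr over the 8 libraries ran closest to that of an epithelial adhesion gene. Of 15243 other genes with a mean of at least 1 CPM, the one with the highest Pearson correlation of log2 CPM with Oxtr was Epcam, which encodes an epithelial cell adhesion molecule (r = 0.99, Spearman's rho 0.95, 8 libraries). Epcam measured 157.8, 312.9, 223.0 and 147.7 CPM in libraries 1 to 4 labelled PGR-deficient, against 141.0, 174.0, 138.4 and 205.1 CPM in control libraries 1 to 4. As for Oxtr, libraries 2 and 3 labelled PGR-deficient were highest and control library 4 came next. The next 4 genes were Thsd4, Twsg1, Ccdc3 and Src, with r from 0.976 to 0.984. Thsd4 encodes a matrix protein that takes part in microfibril assembly, Twsg1 a secreted modulator of bone morphogenetic protein signalling, and Src a membrane-associated tyrosine kinase. Without libraries 2 and 3 labelled PGR-deficient, the 2 farthest from the Oxtr median, r was 0.94 for Epcam and 0.910 to 0.932 for the other 4. These genes were picked for their likeness and carry no test, and 307 of the 15243 genes had an r above 0.9.

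Markers of the cell types that could hold Oxtr moved in different ways with it. The summed level of 8 epithelial markers was 1289, 2860, 2122 and 1347 CPM in libraries 1 to 4 labelled PGR-deficient, against 1455, 1389, 1436 and 1265 CPM in control libraries 1 to 4. The summed level of 8 smooth muscle markers, among them Acta2 and Myh11, was 4176, 4667, 4880 and 4460 CPM in libraries 1 to 4 labelled PGR-deficient, against 4223, 5963, 5075 and 6318 CPM in control libraries 1 to 4. Library 2 labelled PGR-deficient, with the most Oxtr, was thus highest in the epithelial markers and in the middle of the smooth muscle range, while control library 4, with the most Oxtr of its label, was lowest in the epithelial sum and highest in the smooth muscle sum. Members of the epithelial list differed among themselves: in library 2 labelled PGR-deficient Krt19 stood at 533.9 CPM, against 79.9 to 176.8 CPM in the controls, but Cldn3 at 130.0 CPM, against 112.2 to 189.9 CPM. Of the 8 epithelial markers 1 was higher at an unadjusted p under 0.05 and 0 lower, and of the 8 smooth muscle markers 0 were higher and 2 lower, where 13% of all genes were higher and 11.8% lower. Of the 5 macrophage markers 4 were higher and 0 lower, and of the 6 stromal markers 2 were higher and 1 lower. The 5 macrophage markers summed to 509.4, 719.3, 740.6 and 541.9 CPM in libraries 1 to 4 labelled PGR-deficient, all above the controls at 373.8 to 489.1 CPM. The 6 stromal markers summed to 6844 to 8348 CPM, above 5153 to 6734 CPM in the controls. Singly, 7.61% of all genes separated upward. Most of the stromal sum was Col1a1 and Col3a1, with means of 2363 and 2825 CPM under the PGR-deficient label, against 1483 and 2242 CPM in the controls. Of the other stromal markers, Lum was at a log2 difference of 0.18. Pdgfra, Dcn and Hand2 were at -0.05, -0.09 and -0.75, and all libraries labelled PGR-deficient lay below all controls for Hand2. The 5 endothelial markers were lowest in libraries 2 and 3, at 527.0 and 611.7 CPM, against 785.7 to 954.2 CPM in the controls, and 5 gland markers ranged from 22.4 to 1050 CPM under the PGR-deficient label and from 168.2 to 1151 CPM in the controls. Markers of ovary and corpus luteum summed to 23.6 to 36.3 CPM under the PGR-deficient label and 31.4 to 43.3 CPM in the controls. The part of epithelial, muscle, macrophage or stromal content or of estrogen-induced genes in the Oxtr levels was not tested. In whole tissue, more cells of a type and more RNA per cell cannot be told apart.

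**Figure D2:**
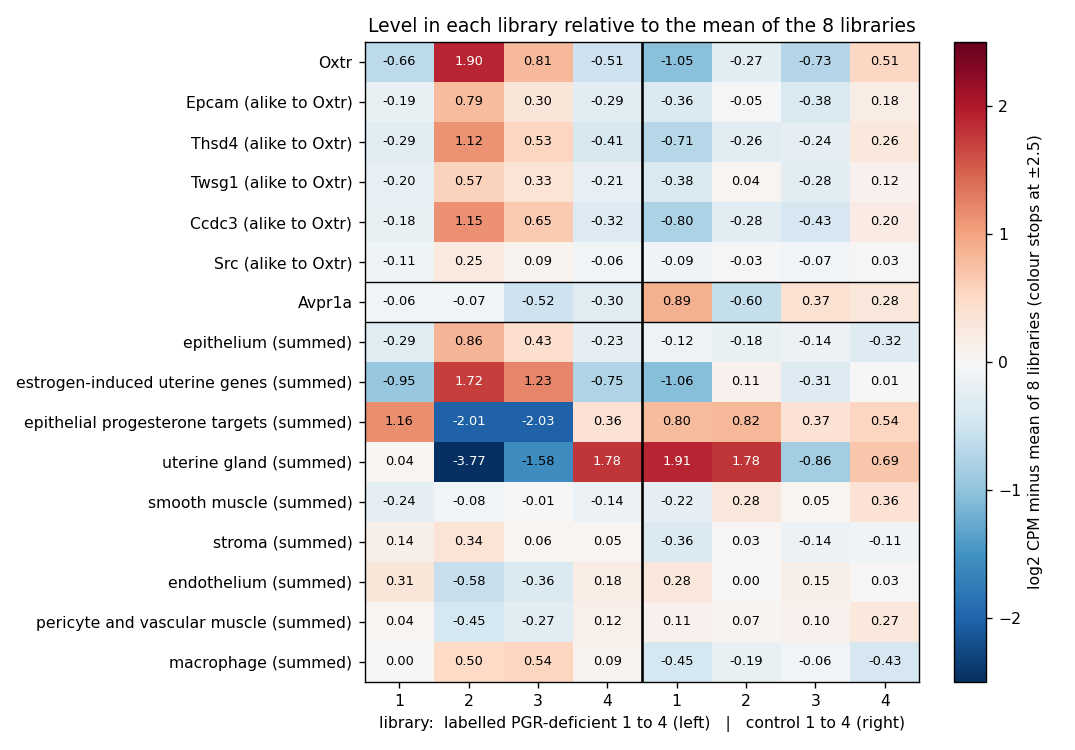
Log2 CPM in each library minus the mean of the 8 libraries (colour and printed value) for Oxtr, the 5 genes most alike to it, Avpr1a, and the summed marker lists, with the libraries labelled PGR-deficient left of the black line and the controls right of it. Oxtr, Epcam and the estrogen-induced genes are highest in libraries 2 and 3 labelled PGR-deficient, where the epithelial progesterone targets, at 43.0 and 42.7 CPM in sum, are lowest.

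Avpr1a was counted at a low level under both labels, lower on average under the PGR-deficient label but without a difference beyond the spread. The gene spans 122448499 to 122453453 of chromosome 10 (GRCm38.p6), with no overlapping gene in the RefSeq table. It measured 1.29, 1.28, 0.936 and 1.09 CPM in libraries 1 to 4 labelled PGR-deficient, from 93, 86, 66 and 80 counts. In control libraries 1 to 4 it measured 2.49, 0.889, 1.74 and 1.64 CPM, from 181, 63, 127 and 116 counts. Control library 1 was highest and control library 2 lowest of all 8, so that the 4 libraries labelled PGR-deficient lay inside the control range. At these counts the 95% Poisson intervals of the 4 libraries labelled PGR-deficient all overlapped, whereas that of control library 1 (2.14 to 2.88 CPM) lay above those of the other 7.

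Avpr1a averaged 1.15 ± 0.166 CPM in the libraries labelled PGR-deficient and 1.69 ± 0.657 CPM in the controls (SD, n = 4 each). The log2 difference was -0.56 ± 0.31 (SE), a ratio of 0.680 with a 95% interval from 0.418 to 1.11. The adjusted p was 0.287 in edgeR, with an unadjusted p of 0.106, and the two-sided exact permutation p was 0.2. Without libraries 2 and 3 labelled PGR-deficient the log2 difference was -0.50 (edgeR adjusted p = 0.545). It was -0.77 without control library 2 (edgeR adjusted p = 0.163) and -0.32 without control library 1 (edgeR adjusted p = 0.568). As markers of the vessel wall, 6 genes of pericytes and vascular muscle summed to 824.7, 587.0, 663.8 and 869.0 CPM in libraries 1 to 4 labelled PGR-deficient, against 863.1, 842.7, 857.4 and 964.1 CPM in control libraries 1 to 4. These sums were lowest in libraries 2 and 3 labelled PGR-deficient. Avpr1a was lowest in control library 2, at 63 counts, and next lowest in library 3 labelled PGR-deficient, at 66 counts. The Poisson intervals of these Avpr1a levels overlapped. The part of the vessel wall markers in the Avpr1a levels was not tested.

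The genes most alike to Avpr1a over the 8 libraries were Tnfrsf4, Fam71e1, Wbp2, AK009335 and 1700088E04Rik, with Pearson's r from 0.918 to 0.962. Tnfrsf4 encodes the T cell costimulatory receptor OX40. It measured 2.63, 2.66, 2.26 and 2.52 CPM in libraries 1 to 4 labelled PGR-deficient, against 3.13, 2.16, 2.78 and 2.72 CPM in control libraries 1 to 4. Like Avpr1a it was highest in control library 1 and lowest in control library 2, over a much narrower range. Of the 15243 candidates 6 had an r above 0.9 with Avpr1a, and r ran from 0.878 to 0.926 for the 5 without control libraries 1 and 2. Avpr1a and Oxtr did not run alike (r = -0.37, Spearman's rho -0.62, 8 libraries, as a description).

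Oxt was at the edge of detection. The gene spans 130574519 to 130577054 of chromosome 2 (GRCm38.p6). It had 0, 2, 0 and 4 counts in libraries 1 to 4 labelled PGR-deficient, against 2, 1, 3 and 6 counts in control libraries 1 to 4. Levels ran from 0 to 0.0547 CPM under the PGR-deficient label and from 0.0141 to 0.0846 CPM in the controls, while a level under 3 counts, or 0.0410 to 0.0445 CPM by library, cannot be told from 0. The 6 counts in the libraries labelled PGR-deficient against 12 in the controls gave a ratio of 0.507 with an exact 95% interval from 0.156 to 1.46, for counting error only. The expression filter left Oxt out of the test across genes, and the two-sided exact permutation p of its log2 CPM was 0.286. A difference in Oxt was not detectable at this depth. Without libraries 2 and 3 labelled PGR-deficient the exact permutation p was 0.533.

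Of the other genes of the peptide family, Avp and Avpr1b were at or near 0 and Avpr2 was counted at a low level in all 8 libraries. Avp, the vasopressin precursor and the nearest neighbour of Oxt at a distance of 3566 bases, had 0 counts in all 8 libraries, where 3 counts would be 0.0410 to 0.0445 CPM. Avpr1b, the pituitary-type vasopressin receptor, had 0 counts in the 4 libraries labelled PGR-deficient and 0, 0, 1 and 1 counts in control libraries 1 to 4. Avpr2, the receptor known for water retention in the kidney, measured 0.719, 0.356, 0.653 and 0.588 CPM in libraries 1 to 4 labelled PGR-deficient, against 0.455, 0.748, 0.643 and 0.790 CPM in control libraries 1 to 4. Its groups overlapped, at a log2 difference of -0.18 ± 0.29 (SE; edgeR adjusted p = 0.709), or -0.01 without libraries 2 and 3 labelled PGR-deficient. The 5 neuron markers summed to 3.72 to 7.66 CPM in the libraries labelled PGR-deficient and to 4.79 to 9.31 CPM in the controls, with 1 of 5 past the expression filter and Snap25 under 3 counts in each library.

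Of the 3 members, 2 passed the expression filter, and 0 of these passed an adjusted p of 0.05 in edgeR, against 0% of all 17629 genes tested. At an unadjusted p under 0.05 there were 0 of 2 members in edgeR, DESeq2 and limma-voom, against 24.8% of all genes in edgeR (13% higher and 11.8% lower). The groups did not separate for either member, whereas all 4 libraries of one label lay beyond all 4 of the other for 16.3% of all genes (7.61% higher and 8.66% lower). DESeq2 called 14% of the genes it tested but neither member, at an adjusted p of 0.206 for Oxtr and 0.244 for Avpr1a, and limma-voom called 0.0113%, with adjusted p of 0.449 and 0.381.

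Around the members, 68 genes of hormone processing, receptor coupling, contraction, desensitization, Oxtr regulation and uterine activation were listed, of which 62 were tested. In edgeR 0 passed over all genes and 14 (22.6%) had an unadjusted p under 0.05, 5 higher and 9 lower under the PGR-deficient label, a share near the 24.8% of all genes. DESeq2 called 6 of the 62 (9.68%), beside 14% of all genes it tested, and limma-voom called 0. The 6 were Scg5, Plcb4, Prkce, Trpc1, Ptgs2 and Fos. The median log2 difference was 0.02 over the 62 genes and 0.01 over all genes tested. The groups separated for 3 of the 62 genes upward and 5 downward, beside 7.61% and 8.66% of all genes. Counted anew at an unadjusted p under 0.05, there were 6 of these genes without control library 4 and 9 without control library 3. There were 7 without library 2 labelled PGR-deficient, and 8 without libraries 2 and 3. The count over all genes fell as well, from 4372 to 2896, 3567, 3380 and 3325 in the same order. Of the 14, 5 kept an unadjusted p under 0.05 without libraries 2 and 3, and all 14 kept their sign. The other 3 of the 8 were Gja1, Rgs2 and Rgs5.

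**Figure D3:**
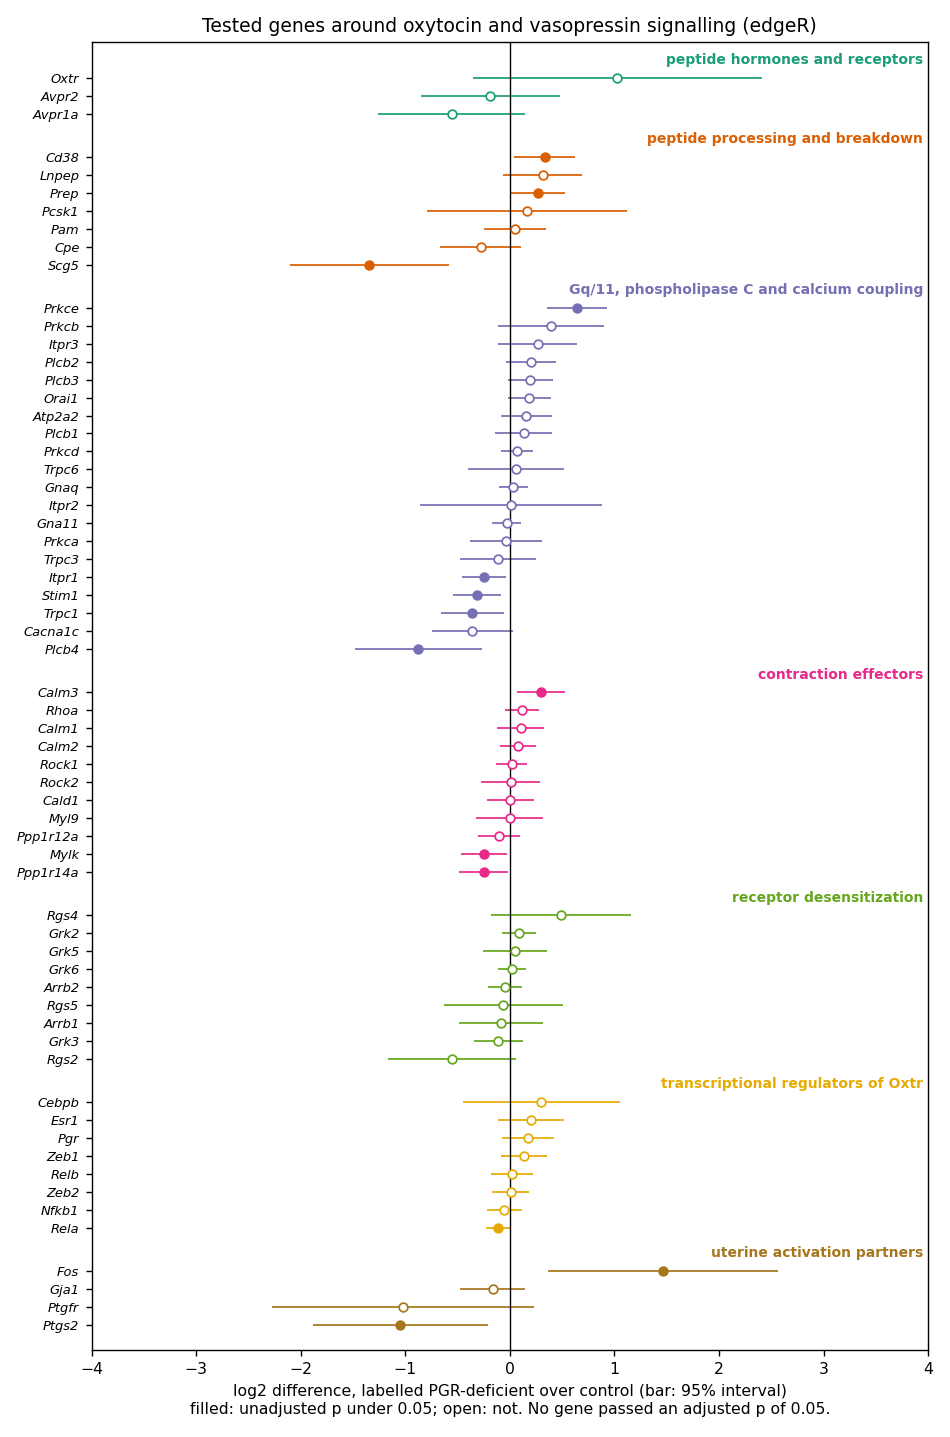
Log2 difference of PGR-deficient over control (x axis, with 95% interval) for the 62 tested genes around oxytocin and vasopressin signalling, grouped by role; filled points have an unadjusted p under 0.05. Points lie on both sides of 0 in each group, and Oxtr at 1.03 and Ptgfr at -1.02 have among the widest intervals.

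Of the genes that make or break down the peptides, 7 of 8 were tested, 2 higher and 1 lower at an unadjusted p under 0.05. Over all genes 13% were higher and 11.8% lower. Scg5, a chaperone of the prohormone convertase Pcsk2, measured 0.622, 0.682, 0.624 and 0.807 CPM in libraries 1 to 4 labelled PGR-deficient, against 1.90, 1.26, 1.01 and 2.78 CPM in control libraries 1 to 4. All 4 libraries labelled PGR-deficient lay below all controls, as for 8.66% of all genes. The log2 difference was -1.34 ± 0.33 (SE, edgeR adjusted p = 0.0968), and -1.28 without libraries 2 and 3. Cd38, an ectoenzyme needed for oxytocin release from neurons in mice, was at 0.33 ± 0.13, and Prep, a peptidase that can cleave both peptides, at 0.27 ± 0.11, each with overlapping groups. Without libraries 2 and 3 Prep was at 0.07. Lnpep, the aminopeptidase also known as oxytocinase, was at 0.31 ± 0.16 (edgeR adjusted p = 0.267), or 0.18 without libraries 2 and 3.

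Of the 20 genes that couple the receptors to calcium, 1 was higher and 4 lower at an unadjusted p under 0.05. Their median log2 difference was 0.05. Over all genes 13% were higher and 11.8% lower, and the groups separated upward for 7.61% and downward for 8.66%. Prkce, a protein kinase C activated by diacylglycerol, measured 78.4, 82.1, 74.3 and 61.5 CPM in libraries 1 to 4 labelled PGR-deficient, against 46.4, 57.5, 41.7 and 44.4 CPM in control libraries 1 to 4. Every library labelled PGR-deficient lay above every control, at a log2 difference of 0.64 ± 0.12 (SE; edgeR adjusted p = 0.0906), and 0.56 without libraries 2 and 3. Plcb4, a phospholipase C of the Gq pathway, measured 21.5, 9.95, 16.5 and 23.6 CPM in libraries 1 to 4 labelled PGR-deficient, against 40.7, 27.6, 27.6 and 35.3 CPM in control libraries 1 to 4. All 4 libraries labelled PGR-deficient lay below the controls, at -0.87 ± 0.26 (edgeR adjusted p = 0.116), or -0.54 without libraries 2 and 3. Stim1, the calcium sensor of the store, was at -0.31 ± 0.10 with separate groups, or -0.18 without libraries 2 and 3. The G protein genes Gnaq and Gna11 were at 0.03 ± 0.06 and -0.03 ± 0.06, or 0.09 and 0.04 without them, which turns the sign of Gna11.

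Among 11 contraction effectors, 1 was higher and 2 lower at an unadjusted p under 0.05, beside 13% and 11.8% of all genes. Calm3, which encodes calmodulin, was at 0.30 ± 0.10 (SE) with every library labelled PGR-deficient above every control, as for 7.61% of all genes. Mylk, the myosin light chain kinase that calmodulin activates, was at -0.24 ± 0.10 and Ppp1r14a, an inhibitor of myosin phosphatase, at -0.25 ± 0.10, both with overlapping groups. None of these 3 passed over all genes (edgeR adjusted p from 0.136 to 0.176). Of 9 genes that end receptor signalling, 0 had an unadjusted p under 0.05 in edgeR, beside 24.8% of all genes. The 3 with the smallest p were Rgs2, a regulator that switches off Gq, at -0.55 ± 0.27, Rgs4 at 0.49 ± 0.29 and the receptor kinase gene Grk2, listed under its older symbol Adrbk1, at 0.08 ± 0.07. Without libraries 2 and 3 labelled PGR-deficient, 2 of the 9 had an unadjusted p under 0.05 in edgeR. Over all genes 3325 did, beside 4372 (24.8% of those tested) with all 8 libraries. The 2 genes were Rgs2 at -0.88 ± 0.31 (SE, edgeR adjusted p = 0.211) and Rgs5 at 0.28 ± 0.11 (edgeR adjusted p = 0.258). Rgs5 turned from -0.06 over all 8 libraries. Libraries 2 and 3 held the highest Rgs2 and the lowest Rgs5 levels of their label. Rgs4 was at 0.25 and Grk2 at 0.13 without them.

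Of 8 tested genes known or proposed to regulate Oxtr, 0 were higher and 1 lower at an unadjusted p under 0.05. Over all genes 13% were higher and 11.8% lower. The lower regulator was Rela, a subunit of NF-kB, at -0.11 ± 0.05 (SE, edgeR adjusted p = 0.202), or -0.07 without libraries 2 and 3. Esr1, the estrogen receptor alpha, measured 208.3, 229.4, 218.1 and 169.8 CPM in libraries 1 to 4 labelled PGR-deficient, against 147.3, 211.1, 161.6 and 198.1 CPM in control libraries 1 to 4. The groups overlapped, at 0.20 ± 0.14 (edgeR adjusted p = 0.386), or 0.08 without libraries 2 and 3, and Pgr was at 0.18 ± 0.11 (edgeR adjusted p = 0.338). Zeb1 and Zeb2, which repress Oxtr in the mouse myometrium, were at 0.13 ± 0.09 and 0.01 ± 0.08, or 0.21 and -0.02 without libraries 2 and 3.

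Among the 4 tested partners of Oxtr in uterine activation, 1 was higher and 1 lower at an unadjusted p under 0.05. The shares of all genes were 13% and 11.8%. Ptgs2, the inducible enzyme of prostaglandin synthesis, measured 3.01, 1.75, 2.23 and 4.56 CPM in libraries 1 to 4 labelled PGR-deficient, against 3.39, 8.11, 5.26 and 7.14 CPM in control libraries 1 to 4. Its log2 difference was -1.05 ± 0.36 (SE; edgeR adjusted p = 0.141), or -0.65 without libraries 2 and 3. Fos, an immediate early gene, measured 15.2, 55.5, 38.5 and 13.8 CPM in libraries 1 to 4 labelled PGR-deficient, against 12.7, 8.30, 15.8 and 7.88 CPM in control libraries 1 to 4. Like Oxtr it was highest in libraries 2 and 3 labelled PGR-deficient, and its log2 difference was 1.46 ± 0.48 (edgeR adjusted p = 0.13), or 0.38 without both. Ptgfr, the prostaglandin F receptor, measured 18.1, 3.32, 5.26 and 14.1 CPM in libraries 1 to 4 labelled PGR-deficient, against 24.2, 15.8, 31.0 and 12.0 CPM in control libraries 1 to 4, and was lowest in the libraries in which Oxtr was highest. Its log2 difference was -1.02 ± 0.55 (edgeR adjusted p = 0.275), or -0.36 without them. Gja1, the gap junction protein connexin 43, was at -0.16 ± 0.14 with overlapping groups. It measured 212.2, 329.7, 295.4 and 255.5 CPM in libraries 1 to 4 labelled PGR-deficient, against 311.5, 339.6, 278.7 and 292.9 CPM in control libraries 1 to 4. Without libraries 2 and 3 the remaining libraries of that label lay below all controls, at -0.38 ± 0.11 (unadjusted p = 0.0112 and adjusted p = 0.169 in edgeR). As libraries 2 and 3 held the highest Gja1 levels of their label, leaving them out could only lower the Gja1 difference.

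**Figure D4:**
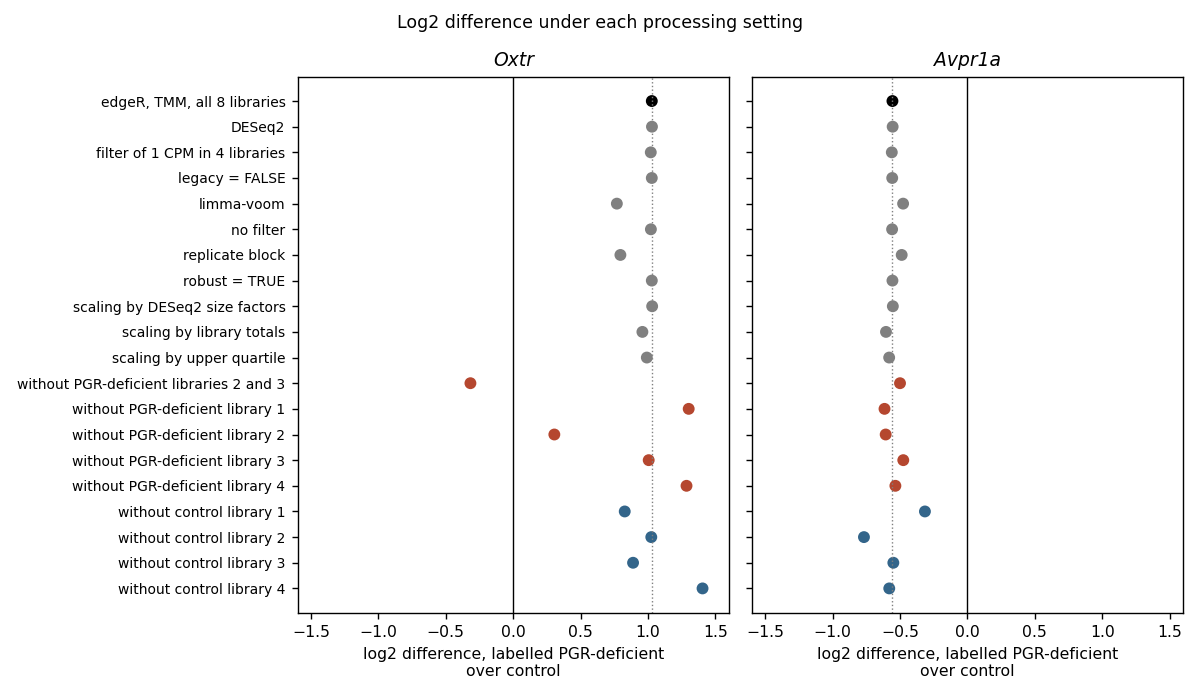
Log2 difference of PGR-deficient over control (x axis) for Oxtr and Avpr1a under each processing setting and with libraries left out; the dotted line marks the value from edgeR with TMM and all 8 libraries. The Oxtr difference is 0.30 without library 2 labelled PGR-deficient and -0.32 without libraries 2 and 3, while that of Avpr1a stays below 0 in every setting run, from -0.77 to -0.32.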

How the data were processed

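The authors deposited whole-number counts per gene symbol, not normalized, for 8 libraries. HISAT2 2.2.1, HTSeq 0.10.0 and the build mm10 are named in the submitters' processing notes, without strand or other settings. Columns were matched to sample titles. Counts covered 31269 symbols, and totals per library are in the text. Coordinates come from RefSeq's gene table for GRCm38.p6 (mm10 is the same assembly); no exon, UTR or sequence annotation was used here.

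Genes passing filterByExpr (17629) were scaled with TMM and tested with edgeR 4.0.16 (glmQLFit with legacy = TRUE, glmQLFTest; R 4.3.3) with the label as sole covariate and Benjamini-Hochberg adjustment over all genes tested. SE was taken from the difference and its F value. Log2 CPM used a prior count of 0.5. Exact permutation tests were two-sided. Alternatives used DESeq2 1.42.0, limma-voom 3.58.1, other scalings and filters, and omitted libraries. The procedures were tested on simulated data. No library repeated another within counting noise.

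The members and lists were chosen with earlier results of these data known. Named genes were the members, Pgr, the other hormones and receptors, the 3 tested genes with the smallest p in each other list, and the 5 genes with the highest Pearson r to Oxtr or Avpr1a; other pathway and marker genes were named after their values were seen.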

Additional observations from a re-analysis of the deposited data

Results flagged for a closer look

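In each group of 4 libraries, the highest or lowest value was tested for its gap to the others with Dixon's 95% critical value. Of 70 groups examined, over the members, the named pathway genes and the marker lists, 1 passed it, where chance gives about 1 in 20. It was the summed level of pericyte and vascular muscle markers in control library 4, at 964 CPM, which lay far above the next control at 863 CPM for the spread of that group. No level of Oxtr, Avpr1a or Oxt passed it.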

How the results depend on the processing

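Oxtr was not called in any of 19 alternatives. Its log2 difference turned to -0.32 in 1 of them, without libraries 2 and 3 labelled PGR-deficient, which held its highest levels. The cause of these levels was not tested. With 1 library left out the Oxtr difference ran from 0.30 to 1.40. Avpr1a kept its direction and was not called in 19 alternatives (-0.77 to -0.32). The Oxt difference, which rests on 18 counts in all, stayed below 0 in 14 alternatives (-1.80 to -0.75). Oxt was not called by exact permutation or by edgeR without a filter, and DESeq2 gave it no adjusted p. The count of all genes called, 0 in edgeR, was 2507 with DESeq2, 2 with limma-voom, 3 with legacy = FALSE and 23 with the replicate block, and ran from 0 to 2 with 1 library left out. At an unadjusted p under 0.05 there were 4372 genes in edgeR and 5306 in DESeq2, and 2896 to 5471 in edgeR with 1 library left out. The pathway genes below an unadjusted p of 0.05, 14 in edgeR, numbered 6 to 18 with 1 library left out. Without libraries 2 and 3 they numbered 8, beside 3325 of all genes.

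With the replicate number as a block, Oxtr was at 0.79 (edgeR adjusted p = 0.426) and Avpr1a at -0.49 (edgeR adjusted p = 0.387). The numbers are not shown to pair the libraries: deviations from the group means correlated over 0.1 in 2 of 4 same-numbered pairs, and 3 of 8 libraries correlated best with their own number. Depth limits Oxt.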
